A study of Mus musculus with 7 samples.

Results

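The genes described here carry out DNA replication and mitosis. They comprise the replicative helicase and its loader, the sliding clamp, enzymes that make deoxynucleotides, cyclins, mitotic kinases with their checkpoint and degradation partners, spindle and cytokinesis proteins, and 3 genes of chromosome structure. The list held 36 genes, and 35 of them were among the 12393 genes measured; Ccnb1 was not analysed here. A gene was taken from probe sets (groups of array probes read as 1 value) annotated with exactly 1 symbol, and the brightest such probe set on average represented it. Expression was measured in the soleus, a slow postural muscle of the mouse hindlimb, on 7 one-colour Affymetrix arrays of total RNA. Of these, 4 arrays came from mice labelled knockout for Yin Yang 1 (Yy1), a zinc finger transcription factor, and 3 from wild type mice. All were 6 months old and of a mixed background of C57Bl/6 and 129 strains. The sources used here do not say which part of Yy1 was deleted, in which cells, or if the arrays are from different animals, so p-values measure the spread between these arrays.

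Cells that divide copy their DNA in each cycle. Before S phase the loader Cdc6 places the ring of 6 Mcm proteins on origins, D and E cyclins drive the entry into S phase, and the Pcna clamp holds polymerases on the template while ribonucleotide reductase and thymidine enzymes supply building blocks. A and B cyclins, Plk1 and the Aurora kinases then carry the cell through mitosis, and the anaphase-promoting complex, with Cdc20 and Ube2c, ends it. Muscle fibres have left the cell cycle, so in a muscle these transcripts are known mostly from satellite cells, immune cells, fibroblasts and vessel cells, and several of the proteins also act in DNA repair or have roles outside division.

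Levels are log2(intensity + 1) and changes are knockout minus wild type on that scale. They were tested for all genes together with limma, a linear model that pools the spread over genes, and a gene was called where its Benjamini-Hochberg adjusted p was under 0.05. Yy1 measured 8.39, 8.24, 8.48 and 8.29 in knockout arrays 1 to 4, against 9.32, 9.20 and 9.62 in wild type arrays 1 to 3, a change of -1.02 (SE 0.10, limma adjusted p = 0.000213; two-sided exact permutation p = 0.0286, the smallest that 4 arrays against 3 can give). Soleus markers were present: all 10 measured fibre genes, among them Mb and Tnni1, lay above the median level of all genes. Of these 10, 4 rose and 4 fell, where 17% of all genes rose and 16% fell. Mb changed by -0.41 and Tnni1 by 0.40. In control probe sets for transcript ends, the 3′ minus 5′ difference was 0.09 to 0.21 in knockout and 0.07 to 0.10 in wild type for beta-actin. For Gapdh it was -0.02 to 0.05 in knockout and -0.06 to -0.04 in wild type, without overlap, and its part in the changes below was not tested.

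Knockout soleus had more transcript of a minority of replication and mitosis genes and less of 3. Of the 35 genes, 12 rose, 3 fell and 20 did not pass the threshold. Over all genes 32.9% passed by the same test, 17% as a rise and 16% as a fall. The median change of the 35 was 0.17, where that of all genes was 0.01. By the brightest probe sets none of those that rose reached 2-fold, which is near the 1.82% of all genes that rose by that size. Other probe sets of Ccnd1 (1.08) and of Top2a (1.01), which was not called by its brightest, did exceed 2-fold. Changes ran between 0.79 for the cyclin gene Ccnd1 and -0.69 for Rrm1 and Tk1. All knockout arrays lay above all wild type arrays in 11 of the 35 genes (20.5% of all genes) and below them in 3 (19.1% of all genes). Leaving out wild type array 3 turned the 12 rises into 6, and leaving out wild type array 2 into 7, while the 3 falls were also counted when any single array was left out.

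**Figure D1:**
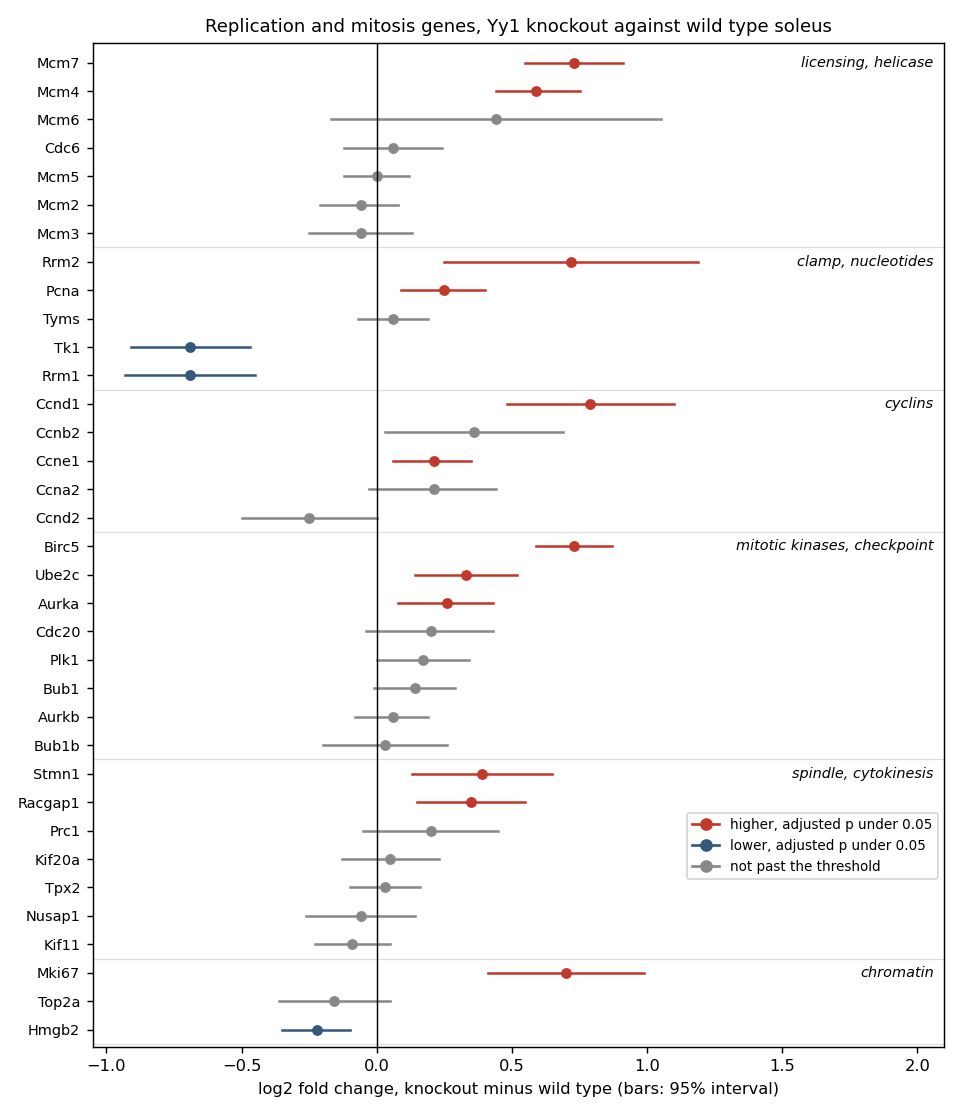
Log2 fold change of each of the 35 genes (knockout minus wild type; points, with 95% interval bars from the limma fit), grouped by role. Red points are the 12 genes that rose, blue the 3 that fell and grey the 20 not past the threshold; Ccnd1 lies farthest up at 0.79 and Rrm1 and Tk1 farthest down at -0.69.

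Most of these genes gave a dim signal, which also depends on the probes and so does not rank the transcripts by abundance. By mean level over the 7 arrays, 29 of the 35 lay at or below the median of all genes and 20 at or below the 25th percentile, Aurkb lowest at percentile 3.4 and Pcna highest at 91.6. Among the 29 at or below the median, 8 rose (27.6%) and 2 fell, where 9.92% of all genes in that range of levels rose and 8.21% fell. Among the 6 above it, 4 rose and 1 fell, where 24% of all genes of that range rose and 23.7% fell. Dim probe sets measure near the array background, and no detection call was used. Exactly equal deposited values on at least 2 arrays occurred in 19 of the 35 genes (54.3%) and in 42.2% of all genes. Among all genes at or below the median level the share was 62.2%.

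**Figure D2:**
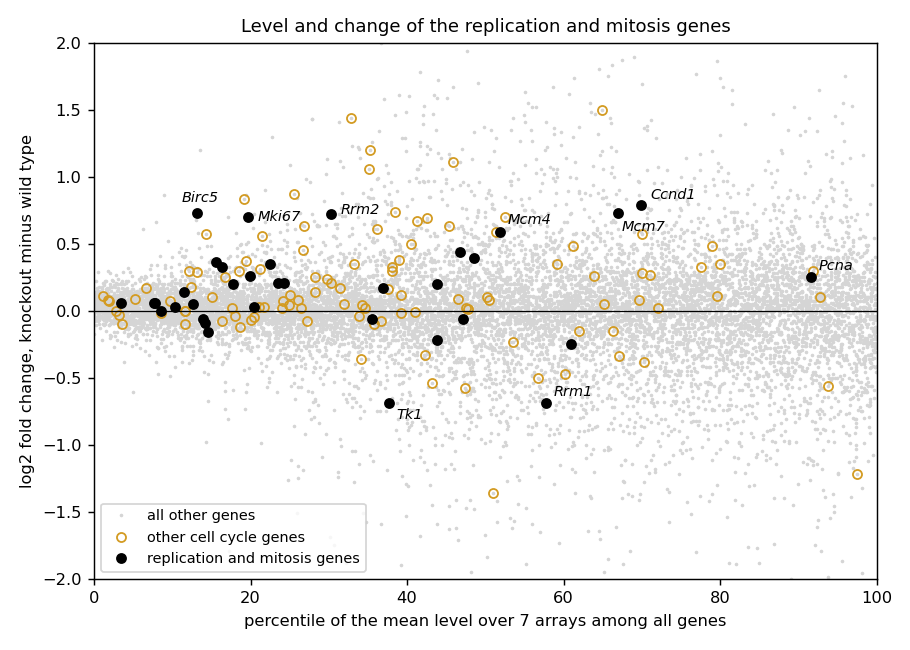
Log2 fold change (knockout minus wild type) against the percentile of the mean level over 7 arrays. Black points are the 35 replication and mitosis genes, open circles 108 other cell cycle genes and grey dots all other genes; 74 genes lie outside the plotted range of changes. Most black points lie left of percentile 50, and Pcna stands alone at 91.6.

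In the replicative helicase, Mcm7 and Mcm4 rose and the other subunits did not pass the threshold. Mcm7 measured 9.11, 9.29, 9.14 and 9.20 in knockout arrays 1 to 4, against 8.57, 8.29 and 8.50 in wild type. The lowest knockout value lay well above the highest wild type one, and the change was 0.73 (SE 0.08, limma adjusted p = 0.000268), or 1.66-fold. Mcm4 measured 8.03, 8.16, 8.12 and 7.93 in knockout and 7.52, 7.42 and 7.46 in wild type, again with no overlap (change 0.59, SE 0.07, limma adjusted p = 0.000361). Mcm6 differed by 0.44 but spread widely, at 7.23 to 8.01 in knockout and 6.49 to 7.54 in wild type, where array 2 was lowest (95% interval of the change -0.17 to 1.05). Mcm2 and Mcm3 each measured -0.06, Mcm5 0.00 and the loader Cdc6 0.06, with intervals that together ran from -0.25 to 0.24. The 6 Mcm proteins form a single ring. Differences between the changes of their genes were not tested, Mcm5 lay at percentile 8.5 of the signal of all genes, and the probe sets of Mcm7 itself ran from 0.15 to 0.87.

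Among genes of the clamp and of nucleotide supply, 2 rose and 2 fell. Of the genes of ribonucleotide reductase, the enzyme that turns ribonucleotides into deoxyribonucleotides, Rrm1 and Rrm2 moved in opposite directions. The large catalytic subunit Rrm1 measured 8.09, 7.87, 8.08 and 7.77 in knockout, against 8.67, 8.46 and 8.79 in wild type, with no overlap (change -0.69, SE 0.11, limma adjusted p = 0.00144). The small subunit Rrm2, which is made in S phase, measured 6.36, 5.86, 6.46 and 6.71 in knockout, against 5.90, 5.28 and 5.71 in wild type. Knockout array 2 lay below wild type array 1, and the change was 0.72 (SE 0.21, limma adjusted p = 0.0277). Rrm2 was no longer called when wild type array 2 was left out (change 0.54, limma adjusted p = 0.108), nor when wild type array 3 was (0.0685). The same held without knockout array 1 (0.055), 3 (0.0703) or 4 (0.0636). Rrm2b, of another small subunit and named after its values were seen, measured 9.24 in knockout and 9.23 in wild type (change 0.02, limma adjusted p = 0.89). Tk1, the thymidine kinase that salvages thymidine in dividing cells, measured 6.39, 6.24, 6.50 and 6.28 in knockout and 6.90, 7.23 and 7.0 in wild type, a fall to 0.619 of the wild type level (change -0.69, SE 0.10, limma adjusted p = 0.000839). Pcna, the sliding clamp, measured 11.29, 11.44, 11.38 and 11.27 in knockout and 11.19, 11.00 and 11.10 in wild type (change 0.25, SE 0.07, limma adjusted p = 0.0228). Leaving out array 2 or 3 of either genotype ended the Pcna call (adjusted p = 0.052 to 0.0868). Tyms, thymidylate synthase, measured 4.63 ± 0.06 in knockout (SD, n = 4) and 4.57 ± 0.05 in wild type (SD, n = 3), and did not pass the limma threshold.

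The promoters of the reductase genes Rrm1 and Rrm2, which moved in opposite directions, and of Ube2c, which rose, are shown. Each is the 250 bases before the RefSeq start site, on the plus strand of GRCm38.p6. Capitals mark matches on either strand to any of several sets of letters. The E2F letters were TTCCCGC, and in other E2F sites TTGGCGC, in a further form TTCGCGC, and in the last form TTGCCGC. The CHR element of mitotic genes was TTTGAA, the box bound by the factor NF-Y was CCAAT, and the core bound by Yy1 was CCATNTT.
Rrm1, chr7:102441445-102441694: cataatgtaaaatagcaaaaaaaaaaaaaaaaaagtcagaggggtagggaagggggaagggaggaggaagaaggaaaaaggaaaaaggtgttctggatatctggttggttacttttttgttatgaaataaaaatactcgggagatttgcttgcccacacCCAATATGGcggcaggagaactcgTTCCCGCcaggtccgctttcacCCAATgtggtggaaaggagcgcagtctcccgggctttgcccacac
Rrm2, chr12:24708004-24708253: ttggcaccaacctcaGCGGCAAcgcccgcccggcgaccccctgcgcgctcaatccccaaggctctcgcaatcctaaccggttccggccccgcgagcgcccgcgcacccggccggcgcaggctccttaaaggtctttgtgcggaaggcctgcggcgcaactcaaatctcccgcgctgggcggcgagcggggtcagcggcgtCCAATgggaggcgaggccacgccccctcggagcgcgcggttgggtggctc
Ube2c, chr2:164769679-164769928: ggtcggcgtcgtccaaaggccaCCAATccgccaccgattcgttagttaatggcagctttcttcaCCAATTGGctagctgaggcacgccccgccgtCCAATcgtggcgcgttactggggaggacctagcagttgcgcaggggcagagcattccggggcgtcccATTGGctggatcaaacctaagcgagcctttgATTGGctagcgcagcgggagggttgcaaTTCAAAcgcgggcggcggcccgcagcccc

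Rrm1, which fell, held E2F letters, 2 CCAAT boxes and YY1 letters that overlap the first of these boxes. Rrm2, which rose, held E2F letters and 1 CCAAT box. Ube2c, which rose, held the CHR element on the minus strand at its 3′ end and CCAAT boxes, 2 of which overlap. Among genes not shown, the windows of Birc5 and Ccne1, which rose, and of Tk1, which fell, held none of these elements. RefSeq promoters were found for 27 of the 35 genes, 29 promoters in all. CCAAT boxes stood in 79.3% of these (33.8% of all 32851 promoters of the same length), E2F letters in 27.6% (7.89% of all), the CHR element in 31% (16% of all) and YY1 letters in 24.1% (12.4% of all). YY1 letters were found in 1 of 10 promoters of genes that rose, 2 of 3 of genes that fell and 4 of 16 of genes not past the threshold. Base composition was not matched, and a match of letters is a description of the window only.

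Among the cyclins, which activate the cyclin-dependent kinases in turn, 2 of 5 rose and none fell. Ccnd1, of cyclin D1, measured 9.23, 9.65, 9.64 and 9.19 in knockout, against 8.59, 8.80 and 8.54 in wild type. Knockout arrays 2 and 3 were highest, the groups did not overlap, and the change of 0.79 (SE 0.13, limma adjusted p = 0.00242), or 1.73-fold, was the largest rise of the list by the brightest probe sets. Its other 2 probe sets rose by 0.84 and 1.08. Ccnd2, of cyclin D2, measured 8.12 to 8.50 in knockout and 8.40 to 8.74 in wild type (change -0.25, SE 0.11, limma adjusted p = 0.119), so its groups overlapped. The difference between the changes of Ccnd1 and Ccnd2 was not tested. Of its 6 other probe sets, 4 fell, by -0.30 to -0.74, and 2 measured 0.02 and -0.08. Ccne1, of cyclin E1, measured 5.68, 5.62, 5.63 and 5.81 in knockout and 5.43, 5.47 and 5.52 in wild type (change 0.21, SE 0.06, limma adjusted p = 0.0372). The Ccne1 call was lost with arrays centred on their median (adjusted p = 0.056), with quantile normalization (0.067), and without any 1 of the wild type arrays or of knockout arrays 1 and 4 (0.0599 to 0.113). The mitotic and S phase cyclins Ccnb2 (0.36, SE 0.14, limma adjusted p = 0.0889) and Ccna2 (0.21, SE 0.10, limma adjusted p = 0.168) did not pass, though all knockout values of Ccnb2 lay above those of wild type.

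Of 8 mitotic kinase, checkpoint and degradation genes, 3 rose, none fell, and all 8 changes were above 0. Birc5, of survivin, a subunit of the chromosomal passenger complex that also holds down cell death, had the smallest p of the list. It measured 5.11, 5.29, 5.24 and 5.22 in knockout, against 4.52, 4.41 and 4.53 in wild type (change 0.73, SE 0.06, limma adjusted p = 0.000112), so the gap between the groups was several times the spread within either. Its partner in that complex, the kinase Aurkb, measured 4.38 ± 0.03 in knockout (SD, n = 4) and 4.32 ± 0.10 in wild type (SD, n = 3; change 0.06, 95% interval -0.08 to 0.19). Ube2c, the ubiquitin-conjugating enzyme of the anaphase-promoting complex, measured 5.11, 5.10, 5.41 and 5.24 in knockout and 4.89, 4.82 and 4.93 in wild type (change 0.33, SE 0.08, limma adjusted p = 0.0157), and leaving out wild type array 2 ended its call (adjusted p = 0.0644). Aurka, the centrosomal Aurora kinase, measured 5.46, 5.47, 5.42 and 5.26 in knockout and 5.03, 5.26 and 5.15 in wild type, where the groups touch (change 0.26, SE 0.08, limma adjusted p = 0.0336). That call ended on leaving out wild type array 1 or 3, or knockout array 1, 2 or 3 (adjusted p = 0.0687 to 0.118). Plk1 (0.17), Cdc20 (0.20), and the checkpoint kinases Bub1 (0.14) and Bub1b (0.03) did not pass, with intervals that together ran from -0.20 to 0.43.

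Of 7 spindle and cytokinesis genes, 2 rose and none fell. Racgap1, which organises the central spindle and cytokinesis, measured 5.46, 5.70, 5.67 and 5.67 in knockout, against 5.32, 5.40 and 5.11 in wild type (change 0.35, SE 0.09, limma adjusted p = 0.0152), and leaving out wild type array 3 ended its call (adjusted p = 0.0548). Stmn1, of the microtubule destabilizer stathmin, measured 7.61, 7.82, 7.76 and 7.71 in knockout and 7.58, 7.35 and 7.06 in wild type, where the knockout arrays lie close together and the wild type arrays spread over a wider range (change 0.39, SE 0.11, limma adjusted p = 0.0291). Leaving out wild type array 2 or 3, or knockout array 2, 3 or 4, ended that call (adjusted p = 0.0589 to 0.0786). The motors Kif11 (-0.09) and Kif20a (0.05), the spindle assembly factors Tpx2 (0.03) and Nusap1 (-0.06), and the antiparallel microtubule bundler Prc1 (0.20) did not pass. Kif11, Kif20a, Tpx2, Nusap1 and Prc1 all lay below the 20th percentile of level, as did Birc5, Ube2c, Mki67 and Aurka, which rose.

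The 3 genes of chromosome structure gave 1 rise, 1 fall and 1 gene not past the threshold. Mki67, whose product Ki-67 coats mitotic chromosomes and is the usual stain for cycling cells, measured 5.41, 5.35, 5.92 and 5.61 in knockout, against 4.85, 4.83 and 4.94 in wild type. Knockout array 3 was highest, and the change was 0.70 (SE 0.13, limma adjusted p = 0.00317), or 1.63-fold. Hmgb2, of a chromatin protein that bends DNA, measured 7.08, 7.01, 7.05 and 7.05 in knockout and 7.22, 7.34 and 7.26 in wild type, a small fall with no overlap (change -0.22, SE 0.05, limma adjusted p = 0.012). Top2a, the topoisomerase that untangles chromosomes before they separate, measured 4.92 ± 0.12 in knockout (SD, n = 4) and 5.08 ± 0.14 in wild type (SD, n = 3; change -0.16, limma adjusted p = 0.219). Its other probe set went against this, at 5.24 in knockout and 4.23 in wild type (change 1.01, SE 0.12, limma adjusted p = 0.000501 over all probe sets), so the direction of Top2a depends on the probe set.

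**Figure D3:**
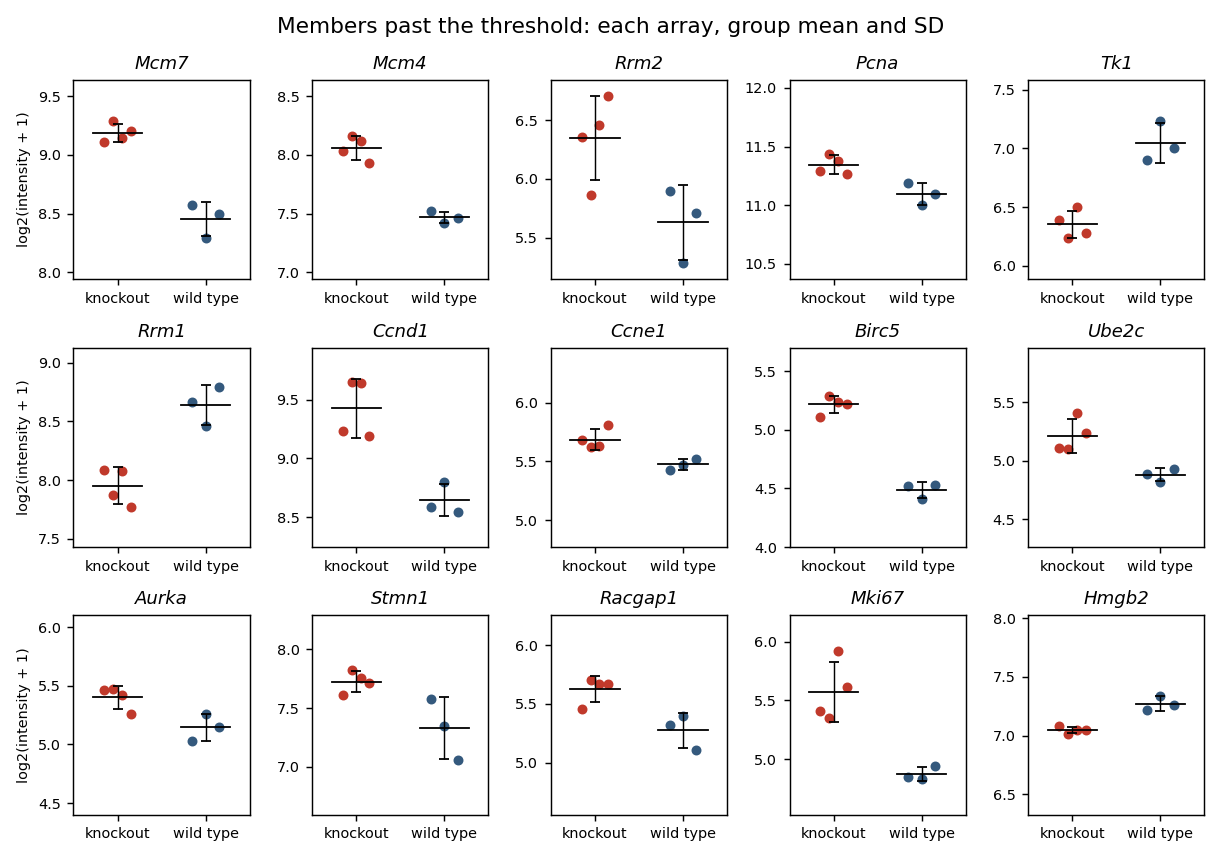
Level, as log2(intensity + 1), of the 15 genes past the threshold on each of 4 knockout (red) and 3 wild type (blue) arrays, with the group mean (line) and SD (bar); all panels span the same range of log2 units. Tk1, Rrm1 and Hmgb2 lie lower in knockout, the other 12 higher, and the groups overlap in Rrm2 and meet in Aurka.

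Other probe sets existed for 22 of the 35 genes, 37 in all, and among them 7 rose, 5 fell and 25 did not pass (14.3% of all probe sets rose). The 5 that fell belonged to Ccnd2 and Rrm1 only, and the share of all probe sets that fell was not computed. Of the genes past the threshold, 8 had other probe sets. All 12 of those probe sets had the sign of the brightest, and 7 also passed. Mcm7 rose by 0.87 and 0.37 in a pair of dimmer probe sets and measured 0.15 in the dimmest. Rrm1 fell by 0.71 in its second probe set. The second probe sets of Mcm4 (0.27), Hmgb2 (-0.24) and Stmn1 (0.25) did not pass (limma adjusted p = 0.0598 to 0.117 over all probe sets). The second probe set of Racgap1 rose by 0.61, and Rrm2 measured 0.27 and 0.06 in its other probe sets, of which the first passed.

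**Figure D4:**
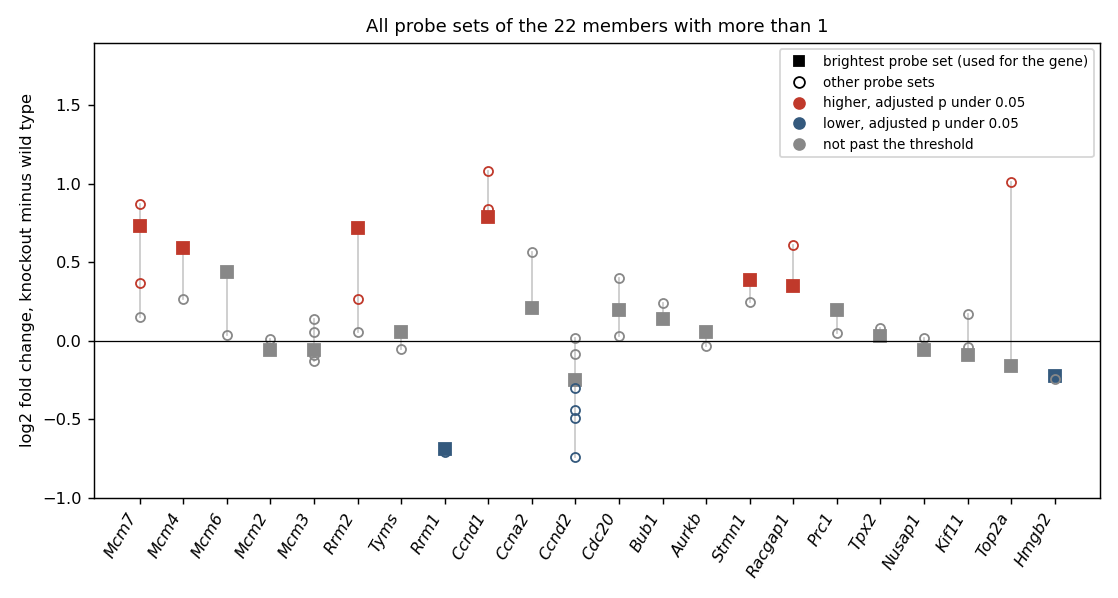
Log2 fold change (knockout minus wild type) of every probe set of the 22 genes with more than 1. Squares are the brightest probe set, which stood for the gene, and circles the others; red rose, blue fell and grey did not pass the threshold over all probe sets. Top2a is the gene whose other probe set passed in the direction opposite to the square.

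Knockout array 3 had the highest value of its group in 15 of the 35 genes and the lowest in 3, while knockout array 1 was highest in 6 and lowest in 14. Over all genes, array 3 was highest in 27.4% and lowest in 22.8%, and array 1 was highest in 26.2% and lowest in 33.3%. Among the 12 genes that rose, array 2 was highest in 8 (43.2% of all genes that rose) and array 3 in 2 (25.3%). Knockout arrays 1, 2 and 4 were each lowest in 4 of the 12, and in 46.1%, 7.18% and 22.7% of all genes that rose. The median difference from the wild type mean over the 35 genes was 0.09, 0.14, 0.27 and 0.08 in knockout arrays 1 to 4. Without knockout array 3, 8 genes rose and 3 fell.

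Cell type markers moved with the genotype as well. Of 13 macrophage and myeloid markers, 12 rose and none fell. Their summed intensity was 8233, 10191, 13829 and 8926 in knockout arrays 1 to 4, against 3860 to 4641 in wild type. Knockout array 3 was highest of its group in this sum and in the fibroblast, endothelial and lymphocyte sums, but not in those of the other lists. Cd68 rose by 2.05 and Mrc1 by 1.32. Fibroblast markers rose in 6 of 9 cases, with summed intensities of 28279 to 42891 in knockout and 21266 to 24974 in wild type. Postn rose by 3.18 and Col1a1 by 0.96. Endothelial markers fell in 9 of 10 cases, with sums of 2877 to 3188 in knockout and 5386 to 5875 in wild type, Cdh5 at -1.04 and Tie1 at -0.96. Of 10 satellite cell and myoblast markers, 4 rose and 1 fell: Des, which fibres also express in abundance, rose by 0.54, Chrdl2 changed by -0.96, and 9 of the 10 changes were above 0. The rest were named after their values were seen. The other 3 that rose were Myf5 (0.52), Cdh15 (0.45) and Cxcr4 (0.34), whose groups overlapped. The 5 that did not pass were Pax7 (0.32), Myod1 (0.20), Calcr (0.15), Itga7 (0.04) and Vcam1 (0.02). Among 9 lymphocyte markers only Ptprc, shared by all leukocytes, rose (1.72), and Cd3d measured 0.10. The list's median level was at percentile 34.3 of all genes. Granulocyte markers gave 1 fall in 7 (S100a9, -0.57; S100a8 measured -0.19), erythroid markers 1 in 4 (Alas2, -0.70; Slc4a1 measured 0.10), Schwann cell markers 1 in 4 (Mbp, -1.73; S100b measured -0.34), and adipocyte markers 1 rise and 1 fall in 4 (Retn 1.06 and Lep -1.88). In whole muscle, more cells of a type and more transcript per cell cannot be told apart, and the part of these markers in the changes of replication and mitosis genes was not tested.

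A wider list of 108 other measured cell cycle genes also changed in both directions: 37 rose (34.3%), 10 fell (9.26%) and 61 did not pass, with a median change of 0.10. The rises with the smallest p were those of Cks1b, a small subunit of cyclin-dependent kinase complexes (1.5, SE 0.08), the condensin ATPase Smc2 (1.06, SE 0.07), Ccne2 of cyclin E2 (1.11, SE 0.12) and the kinetochore gene Cenpk (0.83, SE 0.09). The phosphatase Cdc25b rose by 1.44, Cks2 by 1.20, the histone chaperone Asf1b by 0.63 and the helicase Hells by 0.57. Among the falls were Gmnn, whose product geminin blocks relicensing of origins (-1.36, SE 0.16), and the repressor E2f6 (-0.56, SE 0.06). Dut, which removes dUTP (-0.58), the primase-associated Pola2 (-0.47), the helicase cofactor Gins1 (-0.54), the histone mRNA binding Slbp (-0.34), Orc3 of the origin recognition complex (-0.38) and the condensin subunit Ncapd2 (-0.33) also fell. These 16 genes had limma adjusted p of 2.93e-05 to 0.00741. By role, cyclin-dependent kinases and their regulators rose in 8 of 15 cases, kinetochore genes in 6 of 15 and spindle genes in 5 of 18, without falls. Polymerase and clamp loader genes gave 6 rises and 2 falls in 18, and origin licensing genes 2 and 3 in 14. Nucleotide supply and S phase chromatin genes gave 4 and 2 in 10, condensin and cohesion genes 4 and 1 in 8, and E2F and Rb genes 2 and 2 in 10. Over all genes, 17% rose and 16% fell. The rises of the wider list numbered 24 without wild type array 3.

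Inhibitors of the cell cycle changed in the same arrays. Of 10 inhibitors and pocket proteins, 6 rose, 2 fell and 2 did not pass, where 17% of all genes rose and 16% fell. Of the 10, 7 lay above the median level, where 24% of all genes rose and 23.7% fell. Cdkn1a, of the kinase inhibitor p21, rose by 2.29 (SE 0.18, limma adjusted p = 7.57e-05), the retinoblastoma gene Rb1 by 1.19 and Cdkn2c by 0.66, while Rbl1, of the pocket protein p107, fell (-0.38), as did Cdkn1b, of p27 (-0.46).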

How the data were processed

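The authors deposited 1 linear intensity for each of 22690 probe sets and 7 arrays, and the submitters' processing notes name RMA, which corrects background, equalises arrays and combines the probes of a set. No source used here gives its software or probe annotation. Array medians lay between 139.1 and 143.2. Arrays hold no sequencing depth, so their number limits the precision, and no scan date or slide was used here, so batches were not tested. The table held 0 columns of other series.

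Groups came from the sample titles. After 64 control probe sets were set aside, 20380 probe sets had 1 symbol in the platform annotation, and symbols were updated by Entrez ID through a RefSeq table (GRCm38.p6; 12369 of 12393 genes matched). Values were taken to log2(value + 1) and fitted with limma 3.58.1 in R 4.3.3 (lmFit, eBayes, two-sided), with Benjamini-Hochberg adjustment over all 12393 genes and no filter on dim genes. The script was tested on simulated data. Genes were named by rule: all list members, the 8 smallest p in each direction of the wider list, the leading inhibitors, and the 2 smallest p of each marker list; genes outside it are said to be named after their values were seen. The members and lists were chosen with earlier results of these data known. Alternatives changed the pseudocount, normalization, level filter, probe sets, variance model, replicate numbers or arrays used; log2 of the value with a pseudocount of 0 was added after the data were seen.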

Additional observations from a re-analysis of the deposited data

Results flagged for a closer look

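In 6 of the 36 genes examined, Yy1 included, 1 knockout array stood far from the other 3 by Dixon's test, which flags about 1 in 20 groups by chance. Cdc6 measured 4.5 in knockout array 3, against 4.68 in the other knockout arrays, whose deposited values were equal in every digit. Kif11 measured 4.83 in knockout array 1 and 4.96 in the others, again with 3 equal values. Kif20a measured 5.09 in knockout array 3 and 4.83 in the others. Prc1 measured 5.46 in knockout array 3, where the nearest knockout array had 5.18. Racgap1, which rose, measured 5.46 in knockout array 1, where the nearest had 5.67. Top2a measured 4.74 in knockout array 2, where the nearest had 4.96. All 6 genes lay at or below the 25th percentile of level, and 3 of the flags fall on knockout array 3.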

How the results depend on the processing

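Limits: 7 arrays, dim transcripts and unknown sharing of animals. The number of replication and mitosis genes that rose, 12 as reported, lay between 6 and 10 when 1 array was left out, and the number that fell was 3 each time. Over genes above the median level, 4 rose and 1 fell with a median change of 0.42, since 6 of the 35 remain there, and 13 of the wider list rose. The wider list gave between 24 and 33 rises with 1 array left out, against 37. The median change of the 35 genes lay between 0.11 and 0.20 with 1 array left out.

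Among the 15 genes past the threshold, 7 kept their call in every alternative in which they were measured: Birc5, Ccnd1, Mcm4, Mcm7, Mki67, Rrm1 and Tk1. The other 8 lost it in at least 1. Of 496 single-gene comparisons with an alternative, 459 kept direction and side of the threshold or changed sign without a call on either side, 33 lost a call, 3 gained one and 1 reversed: averaging all probe sets turned Top2a to 0.43 (limma adjusted p = 0.00308), because its second probe set enters. The same averaging called Ccnd2 (-0.33) and Bub1 (0.19). Yy1 lay between -1.12 and -0.91 with 1 array left out.

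Replicate numbers 1 to 3 occur in both genotypes. Deviations from the group means correlated at 0.029, -0.126 and 0.017 between arrays of the same number. Arrays of different numbers were not compared in this way, so whether the numbers pair the arrays was not settled. With the replicate number as a block, 8 genes rose and 3 were lower, and 3224 of all genes were called, against 4082. The 3 lower genes were Rrm1, Tk1 and Ccnd2 (-0.25, limma adjusted p = 0.0469), while Hmgb2 lost its call (limma adjusted p = 0.0823).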

Other observations

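Pttg1, of securin, which guards sister chromatids until anaphase, was chosen after its values were seen. It measured 9.24 in knockout array 1 and 12.76, 13.68 and 13.49 in knockout arrays 2 to 4, against 13.12, 13.75 and 13.68 in wild type. A single knockout array thus set its mean change of -1.22 (limma adjusted p = 0.371, 95% interval -3.41 to 0.97). Pttg1 stood at percentile 97.5 of all genes by mean signal. The mice were of a mixed C57Bl/6 and 129 background, and the genotype at this gene was not measured here.

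Mcm6 had the widest wild type spread of the Mcm genes, with an SD of 0.57 (n = 3), set by wild type array 2 at 6.49. The SD of the other Mcm genes in wild type lay between 0.05 and 0.14.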
